A study of Mus musculus with 4 samples.

Results

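A set of 8 genes of the endocannabinoid system was followed in RNA sequencing of mouse brain septal tissue: the receptor gene Cnr1, the synthesis genes Dagla, Daglb and Napepld, and the breakdown genes Mgll, Abhd6, Abhd12 and Faah. They were chosen by name, and all 8 were among the 15409 gene rows of the files. The series compared TCRb-/- mice, which lack the T cell receptor beta chain, with wild-type (WT) mice. All mice, of both genotypes, went through 3 daily restraint sessions of 30 min, the last of them 1.5 h before tissue was taken, so no unstressed group was analysed here. Each library came from the pooled septal tissue of 4 to 5 mice, and each genotype had 1 library in experiment 1 and 1 in experiment 2, the batch named in the labels. Replicates are therefore pools, not single animals, and the labels name no strain, age or sex.

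Endocannabinoids are lipid messengers that a neuron makes on demand from its own membrane and that act back on the terminals that contact it. The CB1 receptor, encoded by Cnr1, sits mainly on axon terminals and lowers transmitter release when it binds 2-arachidonoylglycerol (2-AG) or anandamide. Diacylglycerol lipases make 2-AG, which is hydrolysed by monoacylglycerol lipase and by the serine hydrolases ABHD6 and ABHD12, while anandamide is released from its membrane precursor by enzymes such as NAPE-PLD and is hydrolysed by fatty acid amide hydrolase. In the brain this system is known for limiting synaptic activity and for shaping the response to stress.

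The libraries held 19988137 to 26210790 reads. Values are in CPM, reads per 1000000 reads of the library, and 95% intervals of single values are exact Clopper-Pearson intervals, which cover counting error only. The targeted locus checks the labels: Trbc2, a constant segment of the deleted receptor chain on chromosome 6 (41546730 to 41548352), was at 0 reads in each TCRb-/- library (upper interval ends 0.150 and 0.185 CPM) and 6.45 and 3.85 CPM in WT libraries 1 and 2. Septal neuron markers (Zic1, Nts, Sst, Chat and others, 11 of 12 listed) summed to 436 to 507 CPM per library. Markers of neighbouring tissue were also read: striatal projection neuron markers (14 of 14 listed) summed to 1072 to 4842 CPM, choroid plexus markers (12 of 12) to 1318 to 6914 CPM, and cortical and hippocampal neuron markers (10 of 10) to 161 to 506 CPM. No listed marker of these 4 lists was at 0 in any library. In such bulk tissue, fewer cells of a type and less RNA per cell cannot be told apart.

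Levels of different genes were compared per length of the longest coding transcript, as RPKM, which divides CPM by the length in kilobases (mean ± SD over the 4 libraries). Abhd12, which encodes a membrane hydrolase of 2-AG and of lysophosphatidylserine, was by far the most abundant member at 222 ± 10.8 RPKM, above 97.6% of 13552 genes with a length. Mgll, the main 2-AG hydrolase of the brain, followed at 36.5 ± 4.01 RPKM, and Abhd6 at 33.4 ± 0.999 RPKM. The ranges of Mgll (32.6 to 40.02) and Abhd6 (32.03 to 34.4) overlapped. By this length Mgll lay above Abhd6 in both libraries of experiment 1 (40.02 against 33.5 in TCRb-/-, 39.8 against 32.03 in WT). In experiment 2 Mgll lay below Abhd6 in both (32.6 against 33.7 in TCRb-/-, 33.4 against 34.4 in WT). Faah (13.8 ± 1.11 RPKM) and Cnr1 (13.3 ± 2.08 RPKM) overlapped as well. Daglb stood at 9.97 ± 0.535 RPKM, and its libraries did not overlap those of Cnr1 or of Dagla. Dagla, the diacylglycerol lipase known for synaptic 2-AG synthesis, had 4.33 ± 0.831 RPKM and overlapped Napepld, the lowest member by mean at 3.52 ± 0.735 RPKM. Dagla lay above Napepld in both libraries of experiment 1 and below it in both of experiment 2, in WT only narrowly (3.48 against 3.56 RPKM). Counting error was not weighed in these orders.

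**Figure D1:**
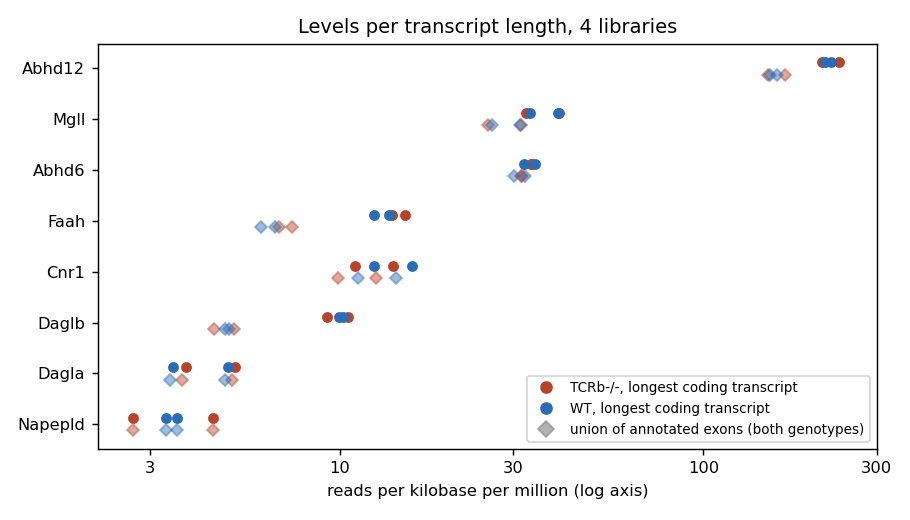
Level of each endocannabinoid gene in RPKM (log axis), 1 point per library, with circles for the longest coding transcript and diamonds for the union of annotated exons. Abhd12 lies near 222 on the first scale, Mgll and Abhd6 near 36.5 and 33.4, and Dagla and Napepld lowest.

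The order depended in part on which length was used. With the union of all annotated exons, Faah came behind Cnr1 (6.72 against 12.0 RPKM), Abhd6 moved ahead of Mgll (31.5 against 28.7 RPKM), and Daglb (4.85 RPKM) came close to Dagla (4.25 RPKM). The union of Daglb is 9567 bases against 4651 for its longest coding transcript, and 2309 of these bases, 24.1%, also lie in exons of Rac1 on the opposite strand. The labels and files do not say whether the counting used strand, so the Daglb level is uncertain. The exons of Mgll share 167 bases with the antisense gene Gm26588, and no other member shares exon bases with another annotated gene.

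All places are from the GENCODE annotation of GRCm38. Cnr1 spans 33924593 to 33948831 on the plus strand of chromosome 4. Faah lies on the minus strand of the same chromosome from 115967145 to 116017926. Daglb lies on chromosome 5 from 143464584 to 143505942 on the plus strand, and Napepld on that chromosome from 21662901 to 21701396 on the minus strand. Dagla lies on chromosome 19 from 10245265 to 10304877 on the minus strand, Abhd6 on chromosome 14 from 8002902 to 8056763 on the plus strand, and Abhd12 on chromosome 2 from 150832493 to 150904741 on the minus strand. Mgll occupies 88724412 to 88828360 on the plus strand of chromosome 6, 47.2 Mb from Trbc2, and is the only member on the chromosome of the targeted gene.

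The genotype comparison asked which genes differed in stressed septal tissue without the T cell receptor beta chain. None of the 8 genes passed the adjusted threshold of 0.05 in limma, a linear model fitted across all genes, either without or with the experiment as a block. Without the block it called 0 of 13912 genes (0.0%) at the adjusted threshold and 43 at an unadjusted p under 0.05, none of them a member. That fit did not call the targeted gene either: Trbc2 had a difference of -2.59 and a limma adjusted p of 1.00 without the block and 0.0323 with it. With the block it called 2 genes (0.0144%), Trbc2 being 1 of them, and had 784 at an unadjusted p under 0.05, with Cnr1 among them. With 2 libraries per genotype, an exact two-sided permutation test of 1 gene cannot go below 0.333. Over the members the median log2 difference, TCRb-/- minus WT on the log2(CPM + 1) scale, was 0.02, beside 0.00069 over all genes tested.

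Cnr1 had 81.1 and 63.8 CPM in TCRb-/- libraries 1 and 2 and 91.9 and 72.2 CPM in the WT libraries. The genotypes overlapped, but within each experiment the TCRb-/- library was the lower one, by a log2 difference of -0.18 in experiment 1 and -0.18 in experiment 2. The fitted difference was -0.18 (SE 0.19, 95% interval -0.65 to 0.30) without the block and had an SE of 0.073 with it (interval -0.35 to -0.01). Its unadjusted limma p of 0.0429 in the blocked fit corresponds to an adjusted p of 0.848. Cnr1 was thus lower in TCRb-/- in 2 of 2 experiments, with no call. Of all genes tested, 51.6% had the same sign of the genotype difference in both experiments. Its difference was -0.35 without TCRb-/- replicate 1 or without WT replicate 2, and -0.01 without TCRb-/- replicate 2 or -0.0050 without WT replicate 1, since leaving out 1 library unbalances the experiments.

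Among the synthesis genes, Dagla had 29.0 and 21.2 CPM in TCRb-/- and 27.8 and 19.6 CPM in WT libraries 1 and 2. Its TCRb-/- library was slightly the higher in each experiment, with a fitted difference of 0.08 (95% interval -0.53 to 0.69, and -0.15 to 0.31 with the block). Daglb, which encodes the lipase that dominates in immune cells, had 48.9 and 43.0 CPM against 47.4 and 46.2 CPM and a difference of -0.03 (interval -0.38 to 0.32). Napepld spread most, relative to its level, between the TCRb-/- libraries. It had 10.7 CPM (counting interval 9.44 to 12.1) and 17.7 CPM (15.9 to 19.7) there, and 13.2 and 14.1 CPM in WT, so that TCRb-/- was lower in experiment 1 and higher in experiment 2.

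Among the breakdown genes, Mgll had 160 and 130 CPM in TCRb-/- and 159 and 133 CPM in WT, a difference of -0.01 (95% interval -0.43 to 0.40, and -0.17 to 0.14 with the block). Abhd6 was the steadiest member, with 74.7 and 75.1 CPM against 71.3 and 76.6 CPM. Abhd12 had 472 and 424 CPM against 431 and 449 CPM, above WT in experiment 1 and below it in experiment 2. Faah had 53.3 and 57.8 CPM in TCRb-/- and 52.1 and 47.5 CPM in WT. Faah was the only member whose genotypes did not overlap, a pattern that 17.8% of all genes tested also showed. Its difference was 0.16 (SE 0.13, 95% interval -0.18 to 0.49), with an unadjusted limma p of 0.299 without the block and 0.127 with it.

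**Figure D2:**
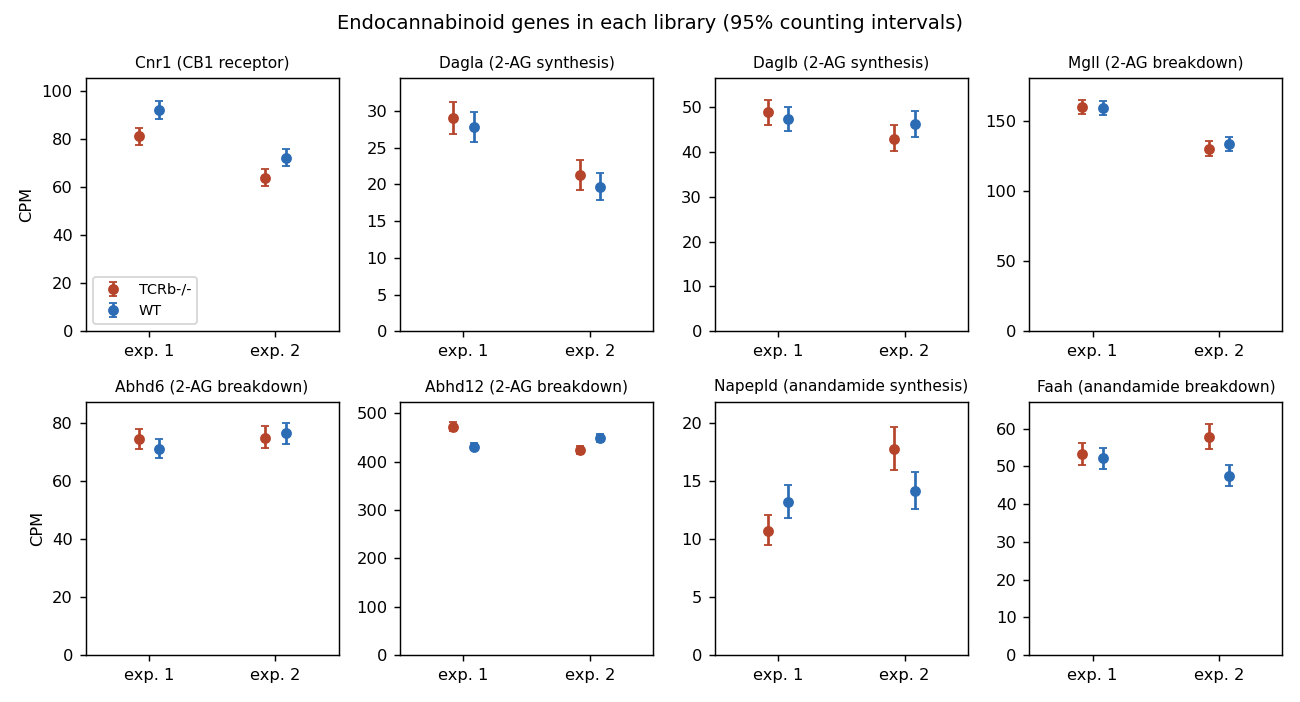
CPM of each endocannabinoid gene in experiments 1 and 2, with TCRb-/- libraries in red and WT libraries in blue and exact 95% counting intervals as bars. Cnr1, Dagla and Mgll lie lower in experiment 2 in both genotypes, and the Cnr1 value of TCRb-/- lies below that of WT in each experiment (81.1 against 91.9 and 63.8 against 72.2 CPM).

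The 2 experiments were then compared, each with 1 library per genotype, since the labels name the experiment as a batch. Cnr1, Dagla and Mgll were lower in experiment 2, which is 3 of 8 members called lower, and no member was called higher. Over all genes limma called 23.7% between experiments, 14.7% lower and 8.95% higher in experiment 2, so the 3 calls stand against a high background. The balance of directions depended on the scaling: 1245 genes were higher and 2047 lower as reported, 1554 higher and 1763 lower with median-of-ratios scaling, and 1634 higher and 1593 lower with quantile normalization. The 3 member calls were kept under both scalings. The median difference, experiment 2 minus experiment 1, was -0.08 over the members and -0.03 over all genes. Libraries of the experiments did not overlap for 6 of 8 members, beside 67.3% of all genes tested.

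Dagla had the largest reduction among the members. It had 28.4 ± 0.840 CPM in experiment 1 and 20.4 ± 1.12 CPM in experiment 2 (SD, n = 2 each), 0.719 of the former. The fitted log2 difference was -0.46 (SE 0.099, limma adjusted p 0.0169), and it was -0.43 in TCRb-/- and -0.48 in WT taken alone. Cnr1 went from 86.5 ± 7.64 to 68.0 ± 5.94 CPM, a difference of -0.34 (SE 0.092, adjusted p 0.0337) that was -0.34 in each genotype. Mgll went from 159 ± 0.581 to 132 ± 2.23 CPM, a difference of -0.27 (SE 0.062, adjusted p 0.0194), with -0.29 in TCRb-/- and -0.25 in WT. In each of these 3 genes both libraries of experiment 2 lay below both of experiment 1.

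The other members gave no call. Napepld had the highest difference at 0.38 (95% interval 0.03 to 0.74), from 11.9 ± 1.74 to 15.9 ± 2.56 CPM, with a limma adjusted p of 0.108. Most of it came from the TCRb-/- libraries, where it was 0.68, against 0.09 in WT. Daglb had 48.1 ± 1.06 and 44.6 ± 2.28 CPM (difference -0.11, interval -0.29 to 0.08). Abhd6 had 73.0 ± 2.38 and 75.8 ± 1.04 CPM, Abhd12 452 ± 29.2 and 436 ± 17.7 CPM, and Faah 52.7 ± 0.825 and 52.7 ± 7.31 CPM. The intervals of Abhd6 (-0.11 to 0.22), Abhd12 (-0.22 to 0.12) and Faah (-0.24 to 0.23) all include 0.

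**Figure D3:**
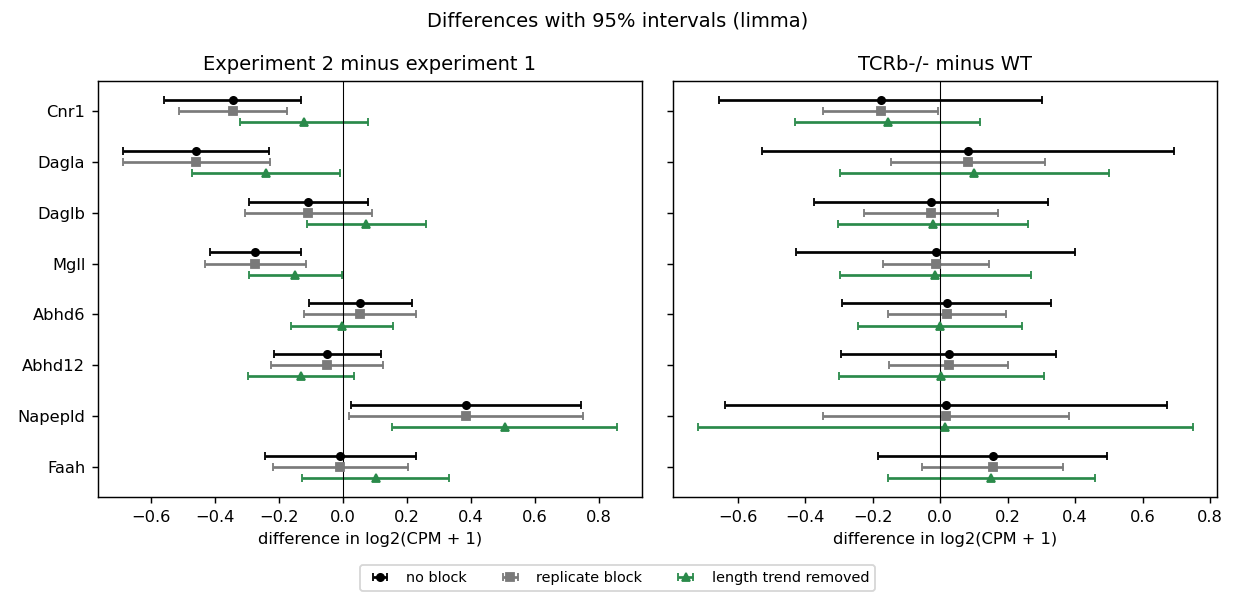
Differences in log2(CPM + 1) with limma 95% intervals, experiment 2 minus experiment 1 on the left and TCRb-/- minus WT on the right, without a block (black circles), with the other factor as a replicate block (grey squares) and with the trend on transcript length removed (green triangles). On the left Cnr1, Dagla and Mgll lie at -0.34, -0.46 and -0.27 and move to -0.12, -0.24 and -0.15 without the length trend, and on the right the intervals without a block include 0 for all 8 genes.

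These 3 calls did not hold once a trend on transcript length was removed. The difference between experiments had a Spearman rho of -0.471 with transcript length over 13552 genes, a description since genes share libraries, and it was -0.388 within TCRb-/- and -0.498 within WT. The median difference was 0.21 in the shortest of 10 length bins and -0.24 in the longest. Cnr1 (5807 bases) and Dagla (5634 bases) are longer than 84.9% and 83.5% of these genes and belong to a bin in which 29.6% of genes were called lower. Mgll (3991 bases) belongs to a bin in which 19.9% were. After each library's length trend was removed, an alternative added after the data had been seen, the differences were -0.12 for Cnr1 (limma adjusted p 0.386), -0.24 for Dagla (0.155) and -0.15 for Mgll (0.157). Over all genes 802 were then called higher and 904 lower, a more even split that the 2 other scalings also gave. Napepld (3954 bases) then stood at 0.51 (adjusted p 0.0653), and Daglb turned from -0.11 to 0.07.

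**Figure D4:**
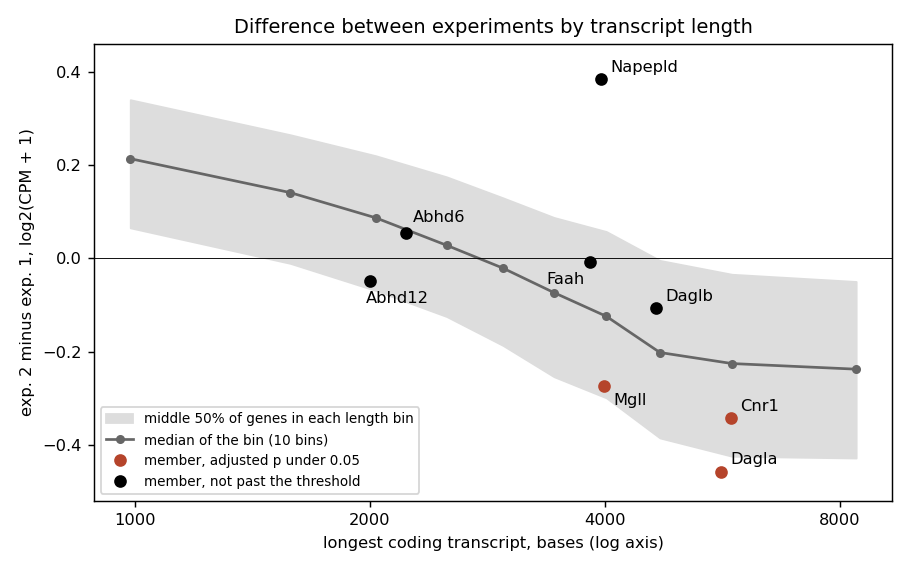
Difference between experiments, experiment 2 minus experiment 1 in log2(CPM + 1), against the length of the longest coding transcript (log axis), with the median and middle 50% of 10 bins of all genes in grey and the 8 members as points. Cnr1, Dagla and Mgll (red, past the threshold) lie below the median line, Cnr1 and Mgll within the grey band and Dagla below it. Napepld, at 0.38, lies above the grey band.

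Leaving out single libraries also ended these calls. Cnr1 lost its call without TCRb-/- replicate 2 (difference -0.26, limma adjusted p 0.133) and without WT replicate 1 (-0.25, 0.142). Dagla lost it without TCRb-/- replicate 1 (-0.43, 0.0799) and without WT replicate 1 (-0.49, 0.0553), at a difference about as large as with all libraries. Mgll lost it without TCRb-/- replicate 1 (-0.27, 0.0601), without TCRb-/- replicate 2 (-0.26, 0.0893) and without WT replicate 1 (-0.28, 0.0534), again at a like size. Napepld gained a call without WT replicate 2 (0.54, 0.0306). The directions were kept in all of these.

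Markers of neighbouring regions moved between the same experiments. Their lists were chosen with earlier results of these data known, so the counts below are a description. Over all genes, 14.7% were called lower and 8.95% higher in experiment 2. Striatal projection neuron markers summed to 4842 and 4320 CPM in the TCRb-/- and WT libraries of experiment 1 and to 1072 and 2381 CPM in those of experiment 2, and 13 of 14 were called lower. Cortical and hippocampal neuron markers summed to 430 and 506 CPM and then to 161 and 204 CPM, with 7 of 10 called lower. Choroid plexus markers rose from 2155 and 1318 to 6914 and 4206 CPM, with 11 of 12 called higher, and thalamic markers had 362 and 358, then 747 and 478 CPM, with 4 of 8 called higher. Markers of cholecystokinin interneurons summed to 148 to 172 CPM in all libraries, with 1 of 5 called. GABA neuron markers summed to 1189 to 1439 CPM, with 0 of 3 called. Septal neuron markers summed to 461 and 436 CPM and then to 475 and 507 CPM. Of 11 septal markers 3 were called higher and 1 lower, at a median difference of 0.25. The Cnr1 difference between experiments was -0.34 in each genotype. By genotype limma without the block called no gene, so no marker either. The median difference of the markers, TCRb-/- minus WT, was 0.61 for choroid plexus, 0.32 for thalamic and -0.0042 for septal markers. It was -0.55 for striatal and -0.19 for cortical and hippocampal markers. The striatal sum was higher in TCRb-/- in experiment 1 and lower in experiment 2, and the thalamic sums lay apart mainly in experiment 2. The choroid plexus sum was higher, and the cortical and hippocampal sum lower, in TCRb-/- in both experiments. The part of tissue makeup in the member differences, between experiments or by genotype, was not tested.

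Ratios between members within a library are free of its total, but not of the length trend where the genes differ in length. Dagla (5634 bases) is longer than Daglb (4651), and Mgll (3991) is longer than Abhd6 (2226) and Abhd12 (1999). The part of the length trend in these ratios was not tested. Per length of the longest coding transcript, Dagla stood at 0.490 (TCRb-/-) and 0.485 (WT) of Daglb in experiment 1 and at 0.407 and 0.350 in experiment 2. By the union of exons the same ratio was 0.987 and 0.977 in experiment 1 and 0.821 and 0.707 in experiment 2, so its size depended on the length used. It was lower in both libraries of experiment 2. The choice of length rescales a ratio alike in all libraries, so it is no second check of that direction. Faah stood at 5.15 (TCRb-/-) and 4.09 (WT) times Napepld in experiment 1 and at 3.37 and 3.48 times in experiment 2. By the union of exons this ratio was 2.52 and 2.00 in experiment 1 and 1.65 and 1.70 in experiment 2. Of the summed level of the 3 hydrolases of 2-AG, Abhd12 made up 75.01% to 76.8% in the 4 libraries. Mgll made up 12.9% (TCRb-/-) and 13.8% (WT) in experiment 1 and 11.7% and 11.4% in experiment 2, and Abhd6 between 10.8% and 12.1%. These shares are of RNA and say nothing of enzyme activity.

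Beyond the 8 genes, a list of 28 further genes of the pathway was read, of which 19 were tested. By genotype 0 of 19 were called in limma without the block and 0 with it. Plcb1 had the smallest unadjusted limma p of the 19, 0.00426 with the block, at a difference of -0.29, lower in TCRb-/- in both experiments. Its limma adjusted p with the block was 0.848, and its unadjusted p without the block was 0.328. Between experiments 3 were called lower and 3 higher, and 13 gave no call, beside the 14.7% and 8.95% of all genes.

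Sgip1, whose product binds the CB1 receptor and slows its internalisation, had 87.4 and 65.4 CPM in TCRb-/- and 90.4 and 68.4 CPM in WT (difference -0.40, limma adjusted p 0.00907). Plcb1, a phospholipase C that makes the diacylglycerol from which 2-AG is formed, had 128 and 83.5 CPM in TCRb-/- and 150 and 106 CPM in WT (-0.55, adjusted p 0.0180). Ptgs2, the cyclooxygenase that can oxidise 2-AG and anandamide, was near the limit of detection, at 1.38 and 0.400 CPM in TCRb-/- and 2.29 and 0.403 CPM in WT (-0.998, adjusted p 0.0185). At so low a level the size of this difference depended on the offset, and it was -1.91 with a pseudocount of 0.1, -0.34 with a pseudocount of 5 and -2.09 with voom weights. Plcb4, another phospholipase C, went the other way, from 66.05 and 75.7 CPM in experiment 1 to 111 and 94.95 CPM in experiment 2 (0.53, adjusted p 0.0116). The carriers Fabp3 (0.36, adjusted p 0.0151) and Fabp5 (0.28, adjusted p 0.0302) were higher in experiment 2, and Fabp7 (0.13) gave no call.

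With the length trend removed, Plcb4 (0.74, limma adjusted p 0.0108) and Ptgs2 (-0.83, 0.0466) were still called, and Sgip1 (-0.18), Plcb1 (-0.32), Fabp3 (0.14) and Fabp5 (0.07) were not. Gprasp1, whose product binds the CB1 receptor tail, gained a call there (0.56, adjusted p 0.0426). Before that step Gprasp1 had 129 and 206 CPM in TCRb-/- and 186 and 186 CPM in WT libraries 1 and 2, a difference between experiments of 0.67 in TCRb-/- and 0.00064 in WT. With the replicate block and the length trend removed, Plcb1 was called as well (adjusted p 0.0180). Plcb4 lost its call without TCRb-/- replicate 1 (adjusted p 0.0517). Plcb1 lost it without WT replicate 1 (0.0809). Fabp3 lost it without TCRb-/- replicate 1 (0.0577) or 2 (0.0566), and Fabp5 without TCRb-/- replicate 1 (0.112) or 2 (0.134).

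The 6 listed genes of other anandamide synthesis routes gave no call. Gde1, a phosphodiesterase that can release anandamide, had 280.2 and 304 CPM in TCRb-/- and 271 and 280.0 CPM in WT, and Abhd4 194 and 171 CPM against 170.4 and 179.8 CPM. Naaa, an acid amidase that hydrolyses related lipids, had 31.0 and 31.9 CPM against 27.6 and 30.5 CPM, and Cnrip1, which binds the CB1 receptor tail, 140 and 182 CPM against 153 and 159 CPM. The CB2 receptor gene Cnr2 and the genes Gpr55, Gpr18, Gpr119 and Trpv1 were among the 9 listed genes not analysed here.

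**Figure D5:**
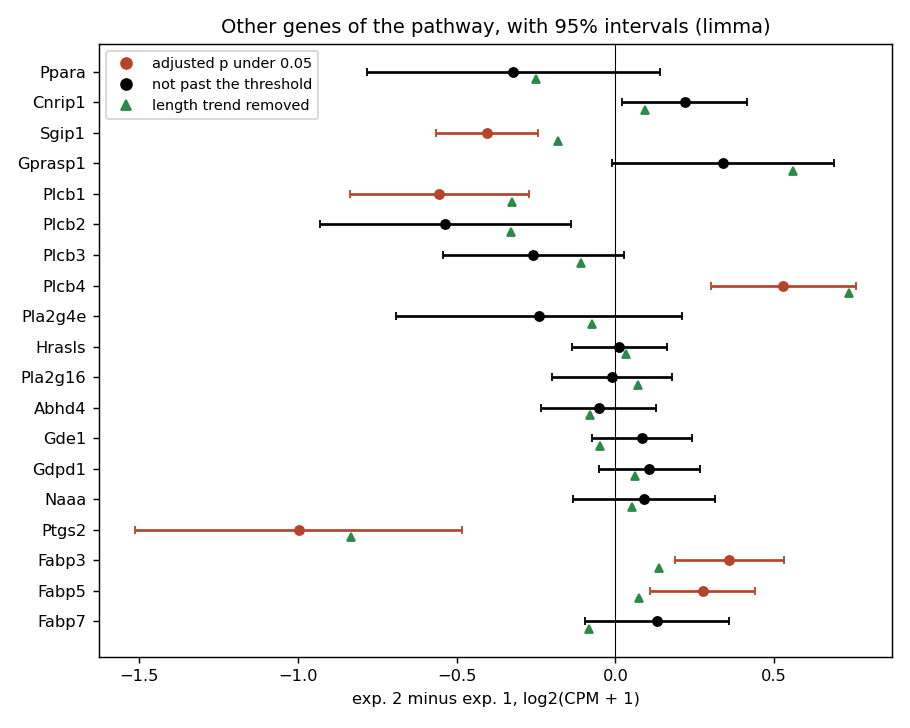
Experiment 2 minus experiment 1 in log2(CPM + 1) with limma 95% intervals for the 19 further pathway genes, past the adjusted threshold in red, and with the length trend removed as green triangles. Ptgs2, Plcb1 and Sgip1 lie lower (-0.998, -0.55 and -0.40) and Plcb4, Fabp3 and Fabp5 higher (0.53, 0.36 and 0.28).

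Genes were also ranked by how closely their values followed Cnr1 over the 4 libraries, as the Euclidean distance between log2(CPM + 1) values centred on each gene's mean. Of 9820 genes with at least 10 CPM, the nearest were Gadd45b (distance 0.021), Mbnl1 (0.021), Cpped1 (0.024), Plek (0.033) and Nus1 (0.034). Gadd45b, which encodes a stress-induced growth arrest protein, had 12.7 and 10.01 CPM in TCRb-/- and 14.7 and 11.2 CPM in WT. Mbnl1, which encodes a splicing regulator, had 92.7 and 71.5 CPM in TCRb-/- and 104 and 82.2 CPM in WT. With 4 libraries such likeness is a description only. Among the members, Mgll was nearest to Cnr1 (distance 0.18, rank 758 of those genes) and Napepld farthest (0.81).

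Upstream bases are shown for Cnr1 and Mgll, which were called together between experiments and have an entry in the RefSeq promoter table (GRCm38.p6). Of the 8 genes, 6 had an entry there. Dagla, which was also called, and Abhd12 had none. Each line gives the 250 bases before the first listed start that hold no annotated exon of the gene, 5′ to 3′ on the plus strand, with motif matches in capitals. They lie at chr4:33924014-33924263 for Cnr1 and at chr6:88724162-88724411 for Mgll.
Cnr1: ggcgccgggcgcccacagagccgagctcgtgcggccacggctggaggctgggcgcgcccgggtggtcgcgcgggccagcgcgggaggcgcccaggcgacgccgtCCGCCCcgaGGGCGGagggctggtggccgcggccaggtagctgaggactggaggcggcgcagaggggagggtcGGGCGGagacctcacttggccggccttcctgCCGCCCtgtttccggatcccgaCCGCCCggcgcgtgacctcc
Mgll: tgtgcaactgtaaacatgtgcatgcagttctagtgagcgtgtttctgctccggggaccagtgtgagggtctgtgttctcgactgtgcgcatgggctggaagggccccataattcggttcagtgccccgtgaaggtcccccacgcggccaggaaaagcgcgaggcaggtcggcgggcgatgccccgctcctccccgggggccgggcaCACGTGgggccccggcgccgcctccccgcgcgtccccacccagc

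Matches were searched for 5 motifs on both strands: the cyclic AMP response element TGACGTCA, the AP-1 site TGANTCA, the E-box CACGTG, the GC box GGGCGG and the TATA box TATAAA. The Cnr1 window was 79.2% G and C, against a median of 52.4% over 32851 windows of the same length, and held 5 matches to GGGCGG, the GC box, which 32.7% of windows hold at least once. The Mgll window was 68.0% G and C and held 1 match to CACGTG, the E-box, which 6.02% of windows hold. The cyclic AMP element, the AP-1 site and the TATA box had no match in either window, beside 1.55%, 6.75% and 12.4% of all windows. Windows before the other listed starts of these genes overlap their own exons and are not shown. For Cnr1, that at chr4:33924394-33924643 held 1 match to CACGTG and that at chr4:33926130-33926379 held no match. For Mgll, that at chr6:88724454-88724703 held 1 match to GGGCGG. Over their listed windows, both genes thus held matches to GGGCGG and to CACGTG, while the shares above are of single windows, not of several windows pooled. Of the other members with an entry, Faah and Abhd6 also held GGGCGG and Daglb and Napepld did not. None of these held CACGTG. A match describes these letters and is no evidence of a bound factor.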

How the data were processed

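RNA from cleared lysates of pooled septal tissue was sequenced after SMARTer low-input library preparation, per the labels' protocols. The submitters' processing notes name HISAT2 2.1.0, SAMtools 1.3, HTSeq 0.9.1, R 4.0.5, limma 3.46.0 and mm10, without role. The deposited values are log2 CPM, 1 library per file. Undoing the log with an offset of 0.5 reads gave whole reads for 100% of values within 0.01 reads. The 17 ERCC spike-in rows were left out of tests. Library totals ranged from 19988137 to 26210790 reads, so 1 read is worth 0.0382 to 0.0500 CPM.

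Reads were expressed as log2(CPM + 1), which understates changes of low genes, and genes averaging 1 CPM or more (13912) were tested in limma 3.58.1 (R 4.3.3) using its mean-variance trend and two-sided tests, adjusted by Benjamini-Hochberg over all genes and a threshold of 0.05. The model was checked on simulated counts that held no broad shift between experiments and no length trend. That check therefore does not cover these features of the data. Other steps used Python 3.11.15 with scipy 1.17.1, pandas 2.3.3, numpy 2.4.6 and, for plots, matplotlib 3.10.9. Lengths and places came from GENCODE M21 (GRCm38, the build mm10 names), with a length for 97.4% of genes. The length trend was a lowess curve (span 0.3) per library.

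Labels number replicates by experiment, which pairs the libraries; deviations from the genotype means correlated at 0.719 between same-numbered libraries. The other factor entered as a block in an alternative. Each genotype had 1 library per experiment, so the p-values do not measure a spread between like pools. Without the block, the spread they rest on includes the differences by the other factor. Scaling by quantiles or by median of ratios, voom weights, a fit without the trend, pseudocounts of 0.1 and 5, a 10 CPM filter, unfiltered genes and omission of single libraries were tried too. The length trend, and the block combined with other settings, were added after the data had been seen. The members and gene lists were chosen with earlier results of these data known. Named were the 8 members, Trbc2, 9 pathway genes whatever their values, any other pathway gene called, and the 5 genes nearest to Cnr1. Gpr55, Gpr18, Gpr119, Trpv1, Cnr2, Gprasp1, Rac1 and Gm26588 were named outside this rule.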

Additional observations from a re-analysis of the deposited data

Results flagged for a closer look

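Of the 8 genes, 6 differed in sign between the experiments or between the genotypes, each value resting on single libraries, and none of these differences was tested. The genotype difference (TCRb-/- minus WT) had opposite signs in the experiments for 5 of them. It went from -0.28 in experiment 1 to 0.31 in experiment 2 for Napepld, a change of 0.59 on the log2 scale. For Abhd12 it went from 0.13 to -0.08, a change of -0.21, and for Daglb from 0.04 to -0.10, a change of -0.15. The changes were -0.0934 for Abhd6 and -0.0417 for Mgll. Faah was higher in TCRb-/- in both experiments, but its difference between experiments was 0.12 in TCRb-/- and -0.13 in WT, which is 0.25 apart. Abhd12 had opposite signs there as well (-0.16 and 0.06). Opposite signs of the genotype difference were common, since only 7173 of 13912 genes (51.6%) had the same sign in both experiments. For the difference between experiments, 10755 genes (77.3%) and 6 of 8 members had the same sign in both genotypes.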

How the results depend on the processing

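The count of members changed by genotype was 0 under every alternative, as was that of the 19 pathway genes. With the replicate block 2 genes were called by genotype, also with quantile normalization, median-of-ratios scaling or voom weights added, 7 with the length trend removed as well, and 0 with the block and no trend. Added alone, the block changed no call of a member or a named pathway gene in either comparison.

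Between experiments, the 3 member calls became 0 without a mean-variance trend, with or without the block, and 0 with the length trend removed, with or without the block. The count of pathway genes went from 6 to 1 without a trend, to 0 with the block and no trend, and to 3 with the length trend removed. The count of all genes went from 3292 to 629, to 0, to 1706 with the length trend removed and to 2155 with the block as well. The cause was not tested. Pseudocounts, filters, scalings and voom weights kept the 3 member calls.

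Values near 0 turned sign in some alternatives. By genotype these were Napepld (-0.0011 with voom weights), and, with the length trend removed, Abhd6 (-0.00078) and Fabp3 (-0.018). Between experiments Faah turned to 0.0242 with median-of-ratios scaling, 0.0465 with quantile normalization and 0.102 without the length trend, each with or without the block. Without the length trend Daglb turned to 0.0728, Abhd6 to -0.0036, Gde1 to -0.0488 and Fabp7 to -0.0832.

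Leaving out 1 library leaves 1 sample in a group, assumed to vary like the others, and unbalances the other factor by construction. Counts then ranged from 0 to 38 genes by genotype, from 1379 to 3395 genes, 0 to 4 members and 3 to 9 pathway genes between experiments. The 38 genes were without TCRb-/- replicate 1 (1 without TCRb-/- replicate 2). The lowest count of genes between experiments was without TCRb-/- replicate 1, followed by 1680 (WT replicate 1 left out) and 1797 (TCRb-/- replicate 2 left out). Among differences that kept their sign, Cnr1 by genotype ranged from -0.35 to -0.0050, Faah by genotype from 0.0894 to 0.22 and Napepld between experiments from 0.23 to 0.54. Genotype differences that turned sign ranged from -0.16 to 0.32 for Dagla, -0.12 to 0.0614 for Daglb, -0.16 to 0.13 for Mgll, -0.32 to 0.36 for Napepld, -0.0317 to 0.0697 for Abhd6, -0.0533 to 0.10 for Abhd12, -0.16 to 0.22 for Cnrip1, -0.26 to 0.15 for Sgip1, -0.85 to 0.15 for Ptgs2, -0.0338 to 0.15 for Abhd4, -0.19 to 0.16 for Fabp5, -0.16 to 0.10 for Fabp7, -0.59 to 0.0187 for Plcb1, -0.36 to 0.38 for Plcb4 and -0.19 to 0.20 for Fabp3. Differences between experiments that did so ranged from -0.15 to 0.13 for Faah, -0.11 to 0.0173 for Abhd12 and -0.15 to 0.0404 for Abhd4. Ptgs2 has no value under a filter at 10 CPM or without WT replicate 1.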
